A study of Sus scrofa with 24 samples.

Results

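The 10 genes described here carry the signal of Toll-like receptor 5 (TLR5) and of the interleukin-1 family receptors from the cell membrane to the kinases of the cytoplasm: MYD88, IRAK4, IRAK1, IRAK2, IRAK3, TRAF6, TAB2, TAB3, MAP3K7 and MAP3K8. They were found by symbol among the pig Ensembl identifiers of the count table. Each symbol belonged to 1 identifier, so 10 of the 14857 pig genes with a symbol, among 25880 pig genes and 31868 features in all, are members. All 10 passed the count filter that left 14172 genes for testing, with the lowest count of any member in any library at 88 (IRAK3).

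The cells were bronchial epithelial cells of wild-type pigs aged 1 month, taken from the airway wall by enzymes, seeded on porous membranes and kept at an air-liquid interface, in which the upper cell surface meets air. Every culture first received a 1 h preincubation and then a stimulus, and each of the 6 groups has 4 libraries, 24 in all. The group called SB203580 plus flagellin was preincubated with SB203580 at 20 µM, a compound that blocks p38 MAP kinase, and stimulated with 100 ng/ml flagellin, the protein of the bacterial flagellum. In flagellin, the preincubation was with the solvent DMSO and the flagellin dose was the same. In PBS, DMSO was followed by buffer without flagellin. Each of the 3 was harvested at 2 h or at 24 h. SB203580 without flagellin is not among the labels used here, so an effect of the inhibitor alone cannot be separated from its effect on the flagellin response. The labels do not say whether the 4 libraries of a group came from separate animals or cultures, so the p-values reflect the variation among these libraries alone, and that variation may be technical.

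In this pathway, flagellin bound to TLR5 brings the adaptor MYD88 to the receptor, where MYD88 collects the kinases IRAK4, IRAK1 and IRAK2 in one complex. IRAK4 activates IRAK1 and IRAK2, which pass the signal to the ubiquitin ligase TRAF6, while IRAK3, also called IRAK-M, is known from human and mouse cells as a brake at the same step. The chains that TRAF6 builds are bound by TAB2 and TAB3, which bring in MAP3K7, better known as the kinase TAK1, and TAK1 activates both the IKK complex of NF-κB and the MAP kinase cascades that include p38. MAP3K8, also called TPL2, is held by the NF-κB precursor encoded by NFKB1, is released when IKK is active and drives the ERK branch. In airway epithelium this route is known for the release of neutrophil-attracting chemokines soon after contact with flagellated bacteria.

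Total counts ran between 26345945 and 36267289 per library. Replicates 3 and 4 stood apart from replicates 1 and 2 in every group: 52.0% of the tested genes at 2 h and 64.6% at 24 h differed between these 2 sets of libraries by edgeR's quasi-likelihood test with Benjamini-Hochberg adjusted p under 0.05, the threshold for a call throughout. No label says what the replicate numbers stand for, and the comparisons below are therefore given over all 4 libraries, with the replicate number as a block where that changes a call, and within each set. Epithelial markers were high in every library (EPCAM at 243 to 401 CPM, counts scaled to library size, and CDH1 at 1180 to 2186 CPM). Of 13 leukocyte markers, CD3E and CD163 had 0 counts in all 24 libraries. PTPRC had 0 in 18, with a highest value of 0.113 CPM, and TYROBP and MS4A1 had 0 in 23. CSF1R, ITGAM and FCER1G had 0 in 5, 2 and 9 libraries, with highest values of 2.71, 0.602 and 0.124 CPM. CD79A (1.15 to 4.23 CPM), SPI1 (0.280 to 4.55 CPM) and CD2 (0.280 to 1.60 CPM) had counts in every library. CD14 (6.30 to 119 CPM) and CD68 (5.36 to 28.4 CPM) made up most of the list's sum. Flagellin was active in all 4 replicates at 2 h, with CXCL8, a neutrophil-attracting chemokine, at 655 ± 67.8 CPM in flagellin against 33.4 ± 18.4 CPM in PBS (SD, n = 4 each). NFKBIA, a second gene taken as a check, had 843 ± 467 against 114 ± 59.1 CPM (log2 fold change 2.89, edgeR adjusted p 0.0285). In SB203580 plus flagellin against PBS at 2 h CXCL8 was called (3.71, adjusted p 0.0323) and NFKBIA was not (2.51, adjusted p 0.106). NFKBIA had 1162, 1005, 177 and 244 CPM in replicates 1 to 4 of SB203580 plus flagellin at 2 h.

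By their means over all libraries, the members fell into a high tier (TAB2, MYD88 and IRAK1) and a low tier. Levels were set per exon length for this, as CPM per kilobase of exon (RPKM). Over the 24 libraries, TAB2 averaged 25.8 ± 2.45 RPKM, MYD88 25.2 ± 4.43 and IRAK1 20.7 ± 3.97 (SD, n = 24). The kinases IRAK4 (11.0 ± 1.54 RPKM) and MAP3K7 (9.84 ± 1.85 RPKM) and the ligase TRAF6 (7.81 ± 2.15 RPKM) came next. IRAK2 (7.65 ± 5.30 RPKM) and MAP3K8 (6.06 ± 6.99 RPKM) had the widest spread, and TAB3 (3.33 ± 0.396 RPKM) and IRAK3 (3.25 ± 1.08 RPKM) were lowest. Most neighbours in this order overlapped within a group. The tiers stayed apart in PBS at both times and in flagellin at 24 h. In flagellin at 2 h MAP3K8 reached 21.9 RPKM, above the lowest IRAK1 library (19.1 RPKM). In SB203580 plus flagellin MAP3K8 reached 21.5 RPKM at 2 h and IRAK2 18.7 RPKM at 24 h, above the lowest IRAK1 library (15.4 and 14.9 RPKM). In PBS at 2 h TAB2 lay above MYD88 in every library, IRAK1 lay above MAP3K7, and the other neighbours overlapped. Of the 5140 exon bases of MYD88, 2276 are shared with exons of ACAA1, a gene on the other strand. As the use of strand in counting is not given, the level of MYD88 per exon length and its place beside TAB2 are uncertain. In flagellin at 2 h the order was the same at its upper end, but MAP3K8 (13.8 ± 7.82 RPKM) and IRAK2 (13.0 ± 3.46 RPKM) followed directly after IRAK1, against 2.76 ± 2.17 and 4.36 ± 1.70 RPKM in PBS at 2 h (SD, n = 4 each).

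**Figure D1:**
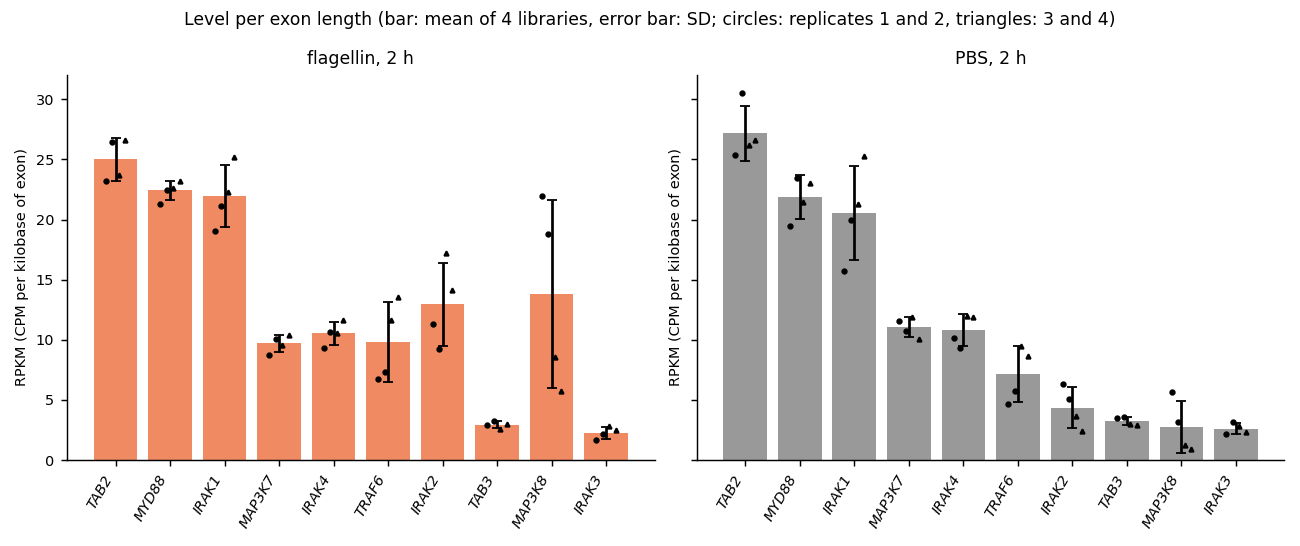
Level of each member per exon length (y axis, RPKM) after 2 h of flagellin (left) and after 2 h of PBS (right). Bars are means of 4 libraries with the SD, circles replicates 1 and 2, triangles replicates 3 and 4. The bars of MAP3K8 (13.8 against 2.76 RPKM) and IRAK2 (13.0 against 4.36 RPKM) differ most between the panels.

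The first question the design poses is what flagellin did at 2 h. MAP3K8 and IRAK2 had higher levels in all 4 flagellin libraries than in any PBS library. In each of the 4 same-numbered pairs TRAF6 was higher and TAB2 slightly lower (means 143 CPM in flagellin and 155 CPM in PBS). The share of all genes with 1 direction in all 4 pairs was not computed. TAB2 and the members not named here stayed near their PBS level. With no block, 0 of the 10 members were called by edgeR, against 0.325% of all tested genes, although 2 members had an unadjusted p under 0.05, as did 5.09% of all genes. The median size of the log2 fold change was 0.16 over the 10 members and 0.13 over all tested genes.

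MAP3K8, the kinase of the ERK branch, had 149, 127, 58.3 and 38.9 CPM in replicates 1 to 4 of flagellin, against 38.5, 21.3, 8.61 and 6.40 CPM in those of PBS. The groups did not overlap, but the lowest flagellin library and the highest PBS library were almost level, because replicates 3 and 4 were lower than replicates 1 and 2 in both groups. The log2 fold change was 2.32 (SE 0.675, edgeR adjusted p 0.294). With the replicate number as a block it was 2.45 (SE 0.223, adjusted p 1.63e-06), a call made in a fit that called 1.07% of all genes. Within the sets it was 2.71 in replicates 3 and 4 (adjusted p 4.88e-06) and 2.21 in replicates 1 and 2 (adjusted p 0.142). DESeq2, with no block, gave an adjusted p of 0.0322, the only member it called here, against 0.523% of its genes. For DESeq2, all shares are of the 19494 genes with a count in any library. These include any genes that its own filter left without an adjusted p. The shares are thus on a wider base than the 14172 genes of edgeR. The gene lies on chromosome 10 at 40709927 to 40746355 on the minus strand, in the coordinates of the deposited table.

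IRAK2, which in mouse and human cells prolongs the signal after IRAK1, had 34.4, 28.1, 52.3 and 42.9 CPM in flagellin, against 19.3, 15.3, 11.0 and 7.39 CPM in PBS. Every flagellin library was above every PBS library, with the gap widest in replicates 3 and 4. The log2 fold change was 1.57 (SE 0.687, adjusted p 0.863), and the block did not bring it past the threshold (1.87, adjusted p 0.139). It was 2.39 in replicates 3 and 4 alone (adjusted p 0.00602) and 0.85 in replicates 1 and 2 alone (adjusted p 0.717), and the difference between the sets was not tested. IRAK2 and MAP3K8 are the 2 members whose groups did not overlap at 2 h, which held for 4.66% of all tested genes and, in the higher direction, for 2.42%. The gene of IRAK2 lies on chromosome 13 at 66350606 to 66416831 and that of TRAF6 on chromosome 2 at 24602811 to 24628262, both on the plus strand.

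TRAF6, the ubiquitin ligase, had 51.5, 55.9, 88.5 and 103 CPM in flagellin, against 35.1, 44.0, 72.4 and 65.6 CPM in PBS. Each flagellin library exceeded the PBS library of the same number, yet the groups overlapped, since replicates 3 and 4 were high in both. Its log2 fold change was 0.46 (SE 0.261, adjusted p 1.00), and 0.46 with a term for the set of libraries at each time (adjusted p 0.0138). That fit called 2.24% of all genes and 3 members, MAP3K8 (2.45, adjusted p 1.24e-06), IRAK2 (1.61, adjusted p 0.0127) and TRAF6. The within-set changes of TRAF6 were alike, 0.49 in replicates 3 and 4 (adjusted p 0.0333) and 0.44 in replicates 1 and 2 (adjusted p 0.525). The same 3 members were called in replicates 3 and 4 alone, against 1.42% of genes, and 0 in replicates 1 and 2 alone, against 0.141%.

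The remaining members gave fold changes close to 0 at 2 h. MYD88 averaged 115 ± 4.10 CPM in flagellin and 112 ± 9.40 CPM in PBS (log2 fold change 0.04, 95% interval -0.20 to 0.27). IRAK4, the first kinase of the complex, averaged 14.6 ± 1.34 CPM in flagellin and 14.9 ± 1.83 CPM in PBS. IRAK1 averaged 46.5 ± 5.43 CPM in flagellin and 43.5 ± 8.36 CPM in PBS. All 3 groups of values overlapped between the treatments. IRAK3, the brake, averaged 3.66 ± 0.789 CPM in flagellin and 4.22 ± 0.751 CPM in PBS. TAB2, TAB3 and MAP3K7 had log2 fold changes of -0.12, -0.13 and -0.19, each with a 95% interval that included 0 (SD, n = 4 for all means). No call was made for any of these 7 with the block, with the term for the set or within either set.

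**Figure D2:**
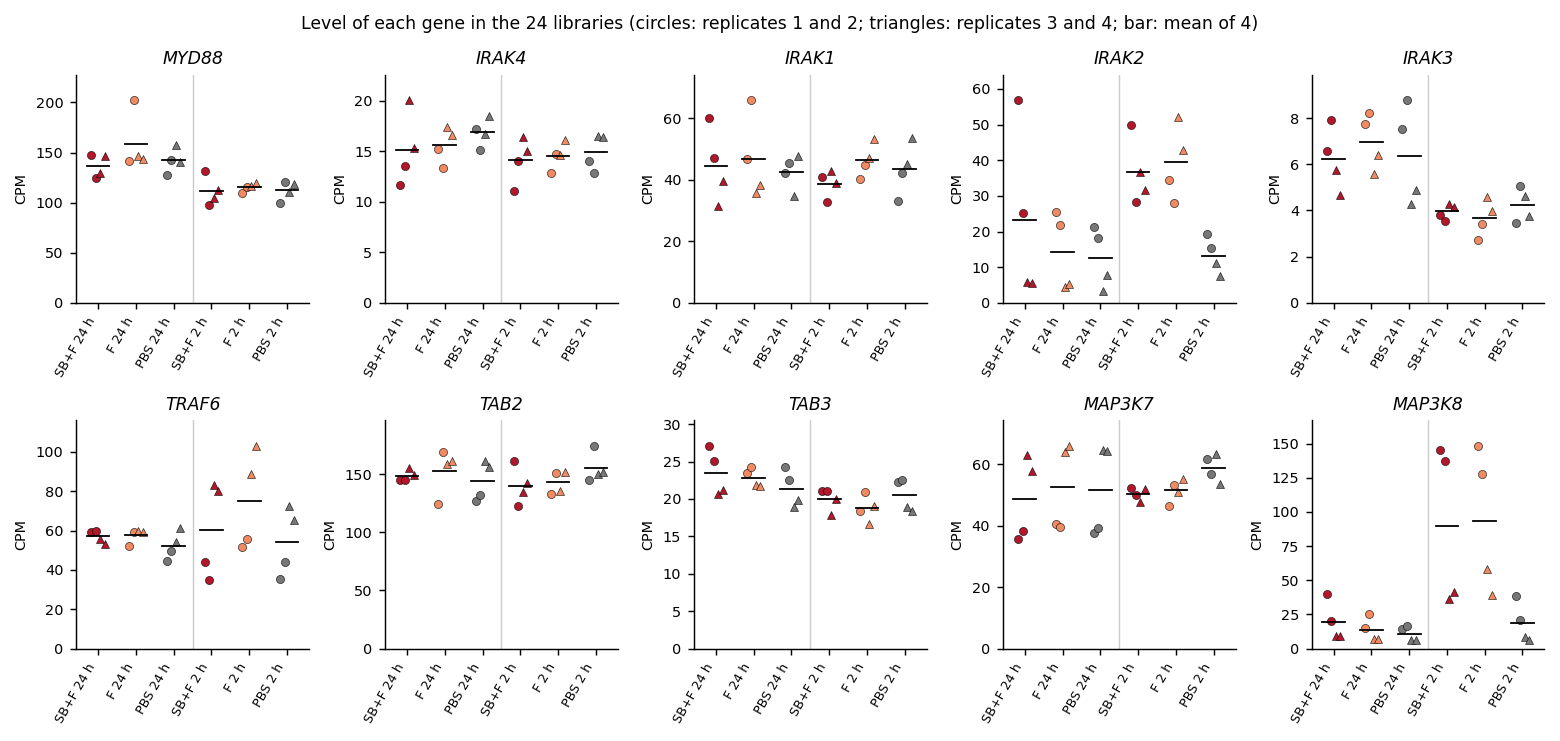
CPM of each member (y axis, its own scale per panel, from 0) in each library, by group (x axis: SB+F, SB203580 plus flagellin; F, flagellin; PBS). Circles are replicates 1 and 2, triangles replicates 3 and 4, bars the means of 4. MAP3K8 and IRAK2 are high in both 2 h groups with flagellin, and at 24 h the triangles of IRAK2 lie between 3.22 and 7.78 CPM, below all circles.

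The second question is whether the p38 inhibitor changed this response. No member was called between SB203580 plus flagellin and flagellin at 2 h or at 24 h by edgeR, where 0.00706% of all genes at 2 h and 0.0% at 24 h were called. At an unadjusted p under 0.05 there were 0 members at either time, against 2.27% of all genes at 2 h and 2.86% at 24 h. DESeq2 called 0 at either time (0.0667% of genes at 2 h and 0.00513% at 24 h), as did the block (0.0353% and 0.0%) and the term for the set (0.374% and 0.0917%). Replicates 3 and 4 alone (0.667% and 0.00717%) and replicates 1 and 2 alone (0.0% and 0.0141%) called 0 members too. No member was free of overlap at either time, against 2.57% of all genes at 2 h and 1.43% at 24 h. MAP3K8 had 145, 137, 36.1 and 41.4 CPM in SB203580 plus flagellin at 2 h, next to the 149, 127, 58.3 and 38.9 CPM of flagellin given above. Replicates 1 and 4 were level and the largest gap was in replicate 3. The log2 difference was -0.05, with a 95% interval of -1.39 to 1.28, and -0.13 with the block (SE 0.209), so changes well over 2-fold are inside the unblocked interval. IRAK2 had 49.8, 28.4, 36.8 and 31.7 CPM in SB203580 plus flagellin, against 34.4, 28.1, 52.3 and 42.9 CPM in flagellin. The inhibited culture was the higher one in replicates 1 and 2 and the lower one in replicates 3 and 4 (log2 difference -0.10, 95% interval -1.50 to 1.29).

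TRAF6 and TAB3 had one direction under the inhibitor in all 4 same-numbered pairs at 2 h. How many of all tested genes did so was not computed, and that the numbers pair libraries is an assumption. These directions are therefore not read as an effect of the inhibitor. TRAF6 had 43.9, 35.0, 83.0 and 80.2 CPM in SB203580 plus flagellin, lower in 4 of 4 pairs than in flagellin (log2 difference -0.31, 95% interval -0.85 to 0.24, adjusted p 1.00). The term for the set gave -0.34 (adjusted p 0.200). TAB3 was higher in 4 of 4 pairs by 0.09 on the log2 scale (95% interval -0.14 to 0.32). For the other 6 members beside MAP3K8 and IRAK2 the log2 differences at 2 h lay between -0.26 (IRAK1) and 0.11 (IRAK3). At 24 h, IRAK2 had the largest value, 0.71 (95% interval -0.70 to 2.12), and replicate 1 of SB203580 plus flagellin decided it. That library had 56.9 CPM, the highest IRAK2 level of all 24 libraries, against 25.1, 5.87 and 5.41 CPM in replicates 2 to 4 and 25.5, 21.9, 4.30 and 5.25 CPM in flagellin. Without that library the difference was -0.23, a change of sign. The same library had the highest sum of leukocyte markers, 151.6 CPM against 29.3 to 51.1 CPM in flagellin at 24 h. The part of these markers in the result was not tested.

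Set against PBS at 2 h, SB203580 plus flagellin had its largest values in MAP3K8 and IRAK2. MAP3K8 averaged 90.0 ± 59.4 CPM in SB203580 plus flagellin and 18.7 ± 14.7 CPM in PBS (SD, n = 4 each). Its log2 fold change was 2.27 (SE 0.673, adjusted p 0.369) and 2.31 with the block (SE 0.222, adjusted p 5.74e-06), where it was the 1 member called against 0.804% of genes. IRAK2 gave 1.47 (SE 0.685, adjusted p 1.00), and 1.49 with the term for the set (adjusted p 0.0206), which called these 2 members and 1.98% of genes. With no block, 0 of 10 members were called against 0.183% of all genes, and 2 had an unadjusted p under 0.05, against 4.75% of genes. DESeq2 called MAP3K8 alone (adjusted p 0.0474) and 0.416% of its genes. Replicates 3 and 4 alone called 2 members against 1.31% of genes, and replicates 1 and 2 alone 0 against 0.0987%. The 2 members without overlap were IRAK2, higher, and MAP3K7, the kinase TAK1, lower at 47.6 to 52.3 CPM against 53.5 to 63.4 CPM in PBS, and 4.25% of all genes did not overlap. The change of MAP3K7 was small (-0.22, SE 0.205, adjusted p 1.00) and was not called with the term for the set (adjusted p 0.0754). These comparisons use the same PBS libraries as those of flagellin alone, so the 2 sets of values are not independent. The sum of leukocyte markers, mostly CD14 and CD68, also differed at 2 h, with 27.4 to 87.0 CPM in SB203580 plus flagellin, 28.2 to 67.6 in flagellin and 16.6 to 42.5 in PBS, and its part in the values of MAP3K8 and IRAK2 was not tested. The sum of epithelial markers (6 of 7 listed genes in the table) moved as well, with 5099 to 5737 CPM in SB203580 plus flagellin, 5928 to 6220 in flagellin and 4919 to 5152 in PBS, so that all flagellin libraries lay above all PBS libraries, and its part was likewise not tested. In bulk RNA, a change in the share of one kind of cell and a change of RNA per cell cannot be told apart.

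**Figure D3:**
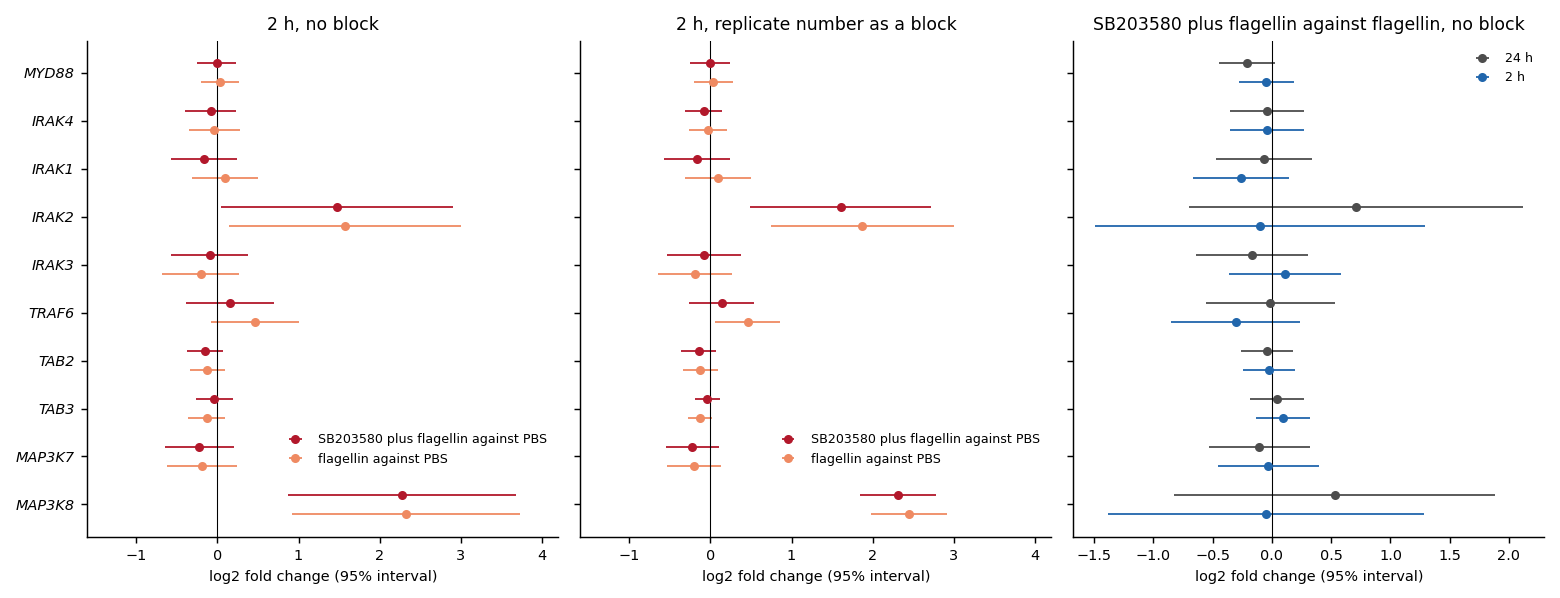
Log2 fold change with its 95% interval for each member (y axis). Left and middle: SB203580 plus flagellin and flagellin, each against PBS at 2 h, without and with the replicate number as a block. Right: SB203580 plus flagellin against flagellin at 24 h and 2 h. MAP3K8 keeps its values (2.32 and 2.45 for flagellin) while the interval narrows with the block, and all intervals on the right include 0.

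At 24 h no difference between flagellin and PBS was detectable in these genes. In flagellin MAP3K8 had 15.2, 25.4, 6.89 and 7.18 CPM, against 14.4, 16.2, 6.34 and 6.63 CPM in PBS, a pair of overlapping groups (log2 fold change 0.32, 95% interval -1.03 to 1.68). IRAK2 had 21.2, 18.1, 3.22 and 7.78 CPM in PBS, so that its flagellin values lay on both sides of these (0.18, 95% interval -1.23 to 1.58). edgeR called 0 of 10 members and 0.0% of all genes, no member had an unadjusted p under 0.05 (0.79% of genes did), DESeq2 called 0 members and 0.00513% of genes, and no member was free of overlap, against 0.741% of all genes. Between SB203580 plus flagellin and PBS, MAP3K8 (0.86, SE 0.654) and IRAK2 (0.89, SE 0.678) had the largest values. Here 0 members were called against 0.00706% of all genes, 0 had an unadjusted p under 0.05 against 4.25% of genes, and DESeq2 called 0 against 0.0513%. The flagellin effect at 24 h minus that at 2 h was -1.997 for MAP3K8 (SE 0.925, adjusted p 1.00) and -2.18 with the block (SE 0.309, adjusted p 0.00124), the only member called in a fit that called 0.191% of genes. It was also the 1 member called with the term for the set, against 0.268% of genes. With no block, that difference was called for 0 members and 0.0423% of genes, 1 member had an unadjusted p under 0.05 against 1.66% of genes, and DESeq2 called 0. For IRAK2 it was -1.40 (SE 0.956), not called with the block (-1.77, adjusted p 0.999). The same difference for the inhibitor's effect was called for 0 members and 0.0% of genes, with 0 members at an unadjusted p under 0.05 against 0.797% of genes, and 0 by DESeq2.

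More members differed between the times. At 24 h against 2 h in flagellin, MYD88 and IRAK3 rose and MAP3K8 fell, 3 members called against 7.9% of all tested genes. Marker sums separated the same libraries, with epithelial markers at 3862 to 5745 CPM at 24 h against 5928 to 6220 CPM at 2 h, and endothelial markers (4 of 6 listed genes in the table) at 209 to 422 CPM at 24 h against 146 to 204 CPM at 2 h. Nearly all of the endothelial sum was KDR, while CDH5 had 0 counts in 19 of the 24 libraries, and the part of these markers in the members' changes was not tested. MAP3K8 averaged 13.7 ± 8.70 CPM at 24 h and 93.3 ± 52.9 CPM at 2 h (log2 fold change -2.78, SE 0.688, adjusted p 0.0160, lower in 4 of 4 replicates). Both sets gave nearly the same value, -2.79 in replicates 3 and 4 (adjusted p 2.65e-06) and -2.77 in replicates 1 and 2 (adjusted p 0.00617). Without replicate 3 or replicate 4 at 24 h the adjusted p was 0.0547 or 0.0518. In SB203580 plus flagellin MAP3K8 had 40.3, 20.2, 9.13 and 9.31 CPM at 24 h, below the same replicate at 2 h in 4 of 4 cases (-2.19, SE 0.671, adjusted p 0.0529), and was called with the block (-2.17, adjusted p 6.87e-06). Without replicate 1 at 24 h or replicate 3 at 2 h the unblocked adjusted p was 0.0288 or 0.0465. In PBS the change was -0.78 (SE 0.654, adjusted p 0.518).

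IRAK3 had 7.74, 8.21, 5.60 and 6.38 CPM at 24 h of flagellin, against 2.71, 3.43, 4.56 and 3.96 CPM at 2 h. The times did not overlap, and the step was larger in replicates 1 and 2, the lowest libraries at 2 h and the highest at 24 h. The log2 fold change was 0.93 (SE 0.229, adjusted p 0.0156), with 0.49 in replicates 3 and 4 (adjusted p 0.0756) and 1.38 in replicates 1 and 2 (adjusted p 0.00936). Without replicate 1 at 2 h the adjusted p was 0.0587. Its 24 h values in SB203580 plus flagellin were 6.57, 7.91, 5.74 and 4.66 CPM, again above every 2 h library (0.65, SE 0.228, adjusted p 0.0916). In PBS the 24 h values were 7.51, 8.79, 4.30 and 4.89 CPM, which overlapped with 3.46, 5.07, 4.62 and 3.74 CPM at 2 h (0.59, SE 0.228, adjusted p 0.106). IRAK3 had 88 to 285 counts per library, the lowest among the members, and lies on chromosome 5 at 30555108 to 30598954 on the plus strand.

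MYD88 had 141, 203, 146 and 144 CPM at 24 h of flagellin, against 110, 116, 117 and 119 CPM at 2 h. The times did not overlap, and replicate 2 at 24 h lay far above the other 3. That library also had 11633 CPM of squamous markers, against 1959 to 2193 CPM in the other 3, and the lowest scaling factor of all 24 libraries (0.836), whose part in its MYD88 level was not tested. The log2 fold change was 0.46 (SE 0.113, adjusted p 0.0156), with 0.29 in replicates 3 and 4 alone (adjusted p 0.0384) and 0.61 in replicates 1 and 2 alone (adjusted p 0.0695). Without replicate 1 at 2 h the adjusted p was 0.0503. In PBS the 24 h libraries (128 to 158 CPM) also stood clear of the 2 h libraries (99.9 to 121 CPM), by 0.34 on the log2 scale (SE 0.113, adjusted p 0.0612), and MYD88 was called there with the block (adjusted p 0.0401). The change was 0.29 in SB203580 plus flagellin (SE 0.113, adjusted p 0.131). The gene lies on chromosome 13 at 22974344 to 22981204 on the plus strand, in the coordinates of the deposited table, and 2276 of its 5140 exon bases are shared with exons of ACAA1, a peroxisomal thiolase gene on the other strand. ACAA1 was called in the same direction in flagellin (0.43, adjusted p 0.00747), in PBS (0.40, adjusted p 0.0105) and in SB203580 plus flagellin (0.32, adjusted p 0.0411). Since the use of strand in counting is not given, reads of the 2 genes cannot be told apart in the shared part.

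IRAK2 and TAB3 were called over time in flagellin with the block but not without it, which brought the count to 5 members against 18.8% of all genes. TAB3, one of the chain-binding partners of TAK1, had 23.4, 24.3, 21.8 and 21.8 CPM at 24 h against 18.4, 20.9, 16.6 and 19.1 CPM at 2 h. The rise was small and even over the replicates (0.28, SE 0.109, adjusted p 0.122; block 0.29, SE 0.0726, adjusted p 0.0104). TAB3 was also called with the block in SB203580 plus flagellin (0.23, adjusted p 0.0362), next to MAP3K8, 2 members against 17.1% of all genes. IRAK2 gave -1.47 in flagellin (SE 0.684, adjusted p 0.214) and -1.99 with the block (adjusted p 0.0168). With no block, 0 members were called over time in SB203580 plus flagellin against 6.88% of genes, 4 had an unadjusted p under 0.05 against 20.3% of genes, and DESeq2 called MAP3K8 (adjusted p 0.00830) and 7.55% of its genes. In PBS, 0 members were called against 10.2% of genes, 2 had an unadjusted p under 0.05 against 24.4% of genes, and DESeq2 called MYD88 (adjusted p 0.0418) and 10.2% of its genes. With the block PBS gave 1 member against 22.5% of genes, and in flagellin DESeq2 called 3 members against 8.26%.

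Members whose 24 h and 2 h libraries did not overlap numbered 5 in flagellin (MYD88, IRAK3 and TAB3 higher, IRAK2 and MAP3K8 lower, against 14.7% of genes), 1 in SB203580 plus flagellin (IRAK3, against 11.7%) and 1 in PBS (MYD88, against 17.2%). Over all 6 groups at once, the F test with 5 degrees of freedom called MAP3K8 (adjusted p 0.00204), MYD88 (adjusted p 0.00729) and IRAK3 (adjusted p 0.0119), 3 members against 15.3% of genes. The block added IRAK2 (adjusted p 0.0101) and TAB3 (adjusted p 0.0134), with 30.5% of genes called. With the term for the set 7 members were called over all groups against 44.7% of genes, and over time 4 in SB203580 plus flagellin (27.1% of genes), 6 in flagellin (28.9%) and 4 in PBS (33.2%). Within replicates 3 and 4 alone, the members called over time numbered 4 in SB203580 plus flagellin (24.7% of genes), 4 in flagellin (27.7%) and 1 in PBS (25.0%). Within replicates 1 and 2 alone they numbered 4 (10.9%), 2 (10.9%) and 2 (15.2%) in the same order. Over these fits and those with and without the block, the members' shares over time lay below the background in some, near it or above it in others, and no test sets them apart from other genes.

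For 5 members the course over time differed between the 2 sets of libraries, a comparison chosen after the data had been seen, which called 35.0% of all genes. IRAK2 fell in replicates 3 and 4 of flagellin, with 4.30 and 5.25 CPM at 24 h against 52.3 and 42.9 CPM at 2 h (-3.32, SE 0.349, adjusted p 0.000259). In replicates 1 and 2 it had 25.5 and 21.9 CPM at 24 h against 34.4 and 28.1 CPM at 2 h (-0.39, SE 0.374, adjusted p 0.527). Over the 3 treatments, the change over time in replicates 3 and 4 minus that in replicates 1 and 2 was -2.20 for IRAK2 (SE 0.384, adjusted p 0.000231). TRAF6 lost the split that it had at 2 h. At 24 h it had 44.5 to 61.2 CPM in all 12 libraries, against 65.6 to 103 CPM in replicates 3 and 4 and 35.0 to 55.9 CPM in replicates 1 and 2 at 2 h (difference in the change -0.81, SE 0.113, adjusted p 1.77e-05).

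MAP3K7, on chromosome 1 at 58481896 to 58548057 on the minus strand, did the reverse. Its 12 libraries at 2 h lay together at 46.6 to 63.4 CPM, and at 24 h replicates 3 and 4 had 57.8 to 66.1 CPM, against 35.7 to 40.5 CPM in replicates 1 and 2, in all 3 treatments (difference in the change 0.71, SE 0.0726, adjusted p 6.19e-07). IRAK1 (-0.69, SE 0.164, adjusted p 0.00275) and IRAK3 (-0.78, SE 0.175, adjusted p 0.00158) had lower changes over time in replicates 3 and 4. At 2 h alone, 4 members differed between the sets: TRAF6 (0.90) and IRAK4 (0.26) were higher and TAB3 (-0.19) and MAP3K8 (-1.78) lower in replicates 3 and 4. At 24 h 7 members did: MAP3K7 (0.72) and IRAK4 (0.29) were higher, and TAB3 (-0.24), IRAK1 (-0.43), IRAK3 (-0.57), MAP3K8 (-1.49) and IRAK2 (-2.34) lower. These shares, 4 and 7 of 10, lie near the 52.0% and 64.6% of all genes. Without replicate 1 of SB203580 plus flagellin, IRAK4 was not called at 2 h (0.21, adjusted p 0.0505) and IRAK1 was (0.32, adjusted p 0.0382). IRAK1 was also called at 2 h without replicate 3 of flagellin (0.30, adjusted p 0.0496) and IRAK3 without replicate 2 of PBS (0.32, adjusted p 0.0297). At 24 h TAB2 was called without replicate 2 of flagellin (0.23, adjusted p 0.00719) or replicate 4 of SB203580 plus flagellin (0.19, adjusted p 0.0392), and without replicate 2 of flagellin at 24 h its change over time also differed between the sets (0.25, adjusted p 0.0415). Marker sums also differed between the sets, with a median of 583 CPM in replicates 3 and 4 against 1499 CPM in replicates 1 and 2 for club and secretory markers. In the same order, it was 82.0 against 386 CPM for goblet and mucin, 2105 against 6001 CPM for squamous and 9.86 against 23.0 CPM for ciliated markers. The goblet and mucin sum held 3 of 7 listed genes (TFF3, AGR2 and SPDEF) and no MUC gene. The squamous sum held 6 of 8, with KRT4 the largest (median 1990 CPM over all libraries). The medians were also lower in replicates 3 and 4 for epithelial (4530 against 5645 CPM), leukocyte (29.2 against 50.6 CPM) and fibroblast and smooth muscle markers (19.2 against 23.2 CPM). Airway basal (839 against 632 CPM) and endothelial markers (293 against 160 CPM) went the other way. The airway basal sum held 4 of 5 listed genes, without KRT5, and was mostly ITGA6 (median 619 CPM over all libraries). The part of all these marker sums in the members' values was not tested.

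**Figure D4:**
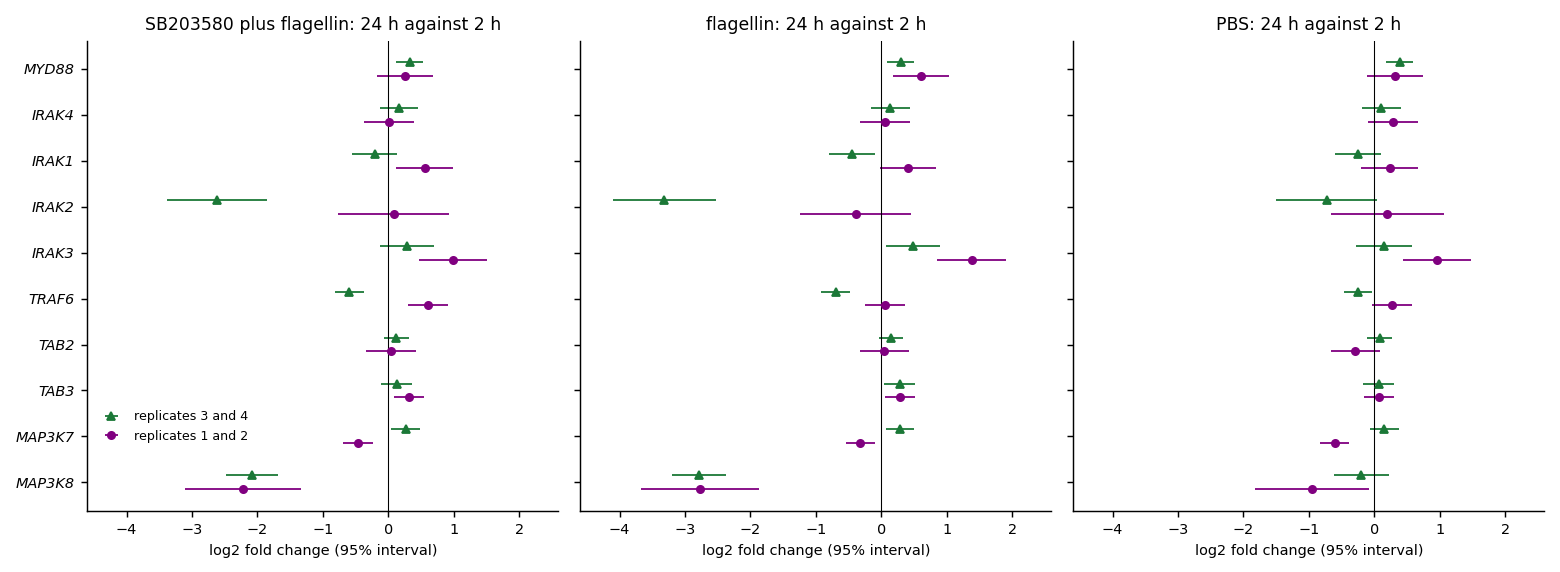
Log2 fold change of 24 h against 2 h with its 95% interval (x axis) for each member (y axis) within replicates 3 and 4 (triangles) and within replicates 1 and 2 (circles), by treatment. MAP3K8 has nearly equal values in both sets under flagellin (-2.79 and -2.77), whereas IRAK2 has -3.32 and -0.39, and MAP3K7 has opposite signs.

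The members most variable between groups were followed by a few genes with a similar pattern over the 24 libraries, after subtraction of each set's mean and among 11846 genes with a symbol. For MAP3K8 the nearest were BIRC3 (Pearson r 0.956), an inhibitor of apoptosis, TNFAIP3 (0.951), the deubiquitinating enzyme A20, and RND1 (0.950). For IRAK2 they were PLEK2 (0.943), ZC3H12C (0.932) and the chemokine gene AMCF-II (0.928). For IRAK3 they were AMPD3 (0.929), PHLDB2 (0.920) and USF3 (0.912). The libraries share treatments and times, so these values describe likeness only.

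The genes around the members in the pathway were given by 9 lists with 55 genes, of which 54 were in the table and tested. At 2 h of flagellin against PBS, 1 of 54 was called higher and 0 lower with no block (1.85%, against 0.325% of all genes): TNFAIP3, which removes the chains built by TRAF6, at 1258 ± 248 CPM in flagellin and 132 ± 22.8 CPM in PBS (SD, n = 4 each; log2 fold change 3.25, SE 0.384, adjusted p 6.96e-05). With the block 5 were called higher and 0 lower (9.26%, against 1.07%), by adding the receptor TLR2 (1.50, adjusted p 0.0102), NFKB1 (1.08, adjusted p 0.0378), which holds MAP3K8, TRAF2 (0.66, adjusted p 0.0444) and the adaptor TICAM1 (0.61, adjusted p 0.0465). In SB203580 plus flagellin against PBS at 2 h TNFAIP3 was again the 1 gene called (2.34, adjusted p 0.00688). Between SB203580 plus flagellin and flagellin 0 of 54 were called at either time with or without the block, although TNFAIP3 averaged 669 ± 184 CPM in SB203580 plus flagellin and 1258 ± 248 CPM in flagellin at 2 h and was called with the term for the set (-0.93, adjusted p 0.00488). In flagellin against PBS at 24 h 0 of 54 were called. In SB203580 plus flagellin against PBS at 24 h 0 were called with no block. With the block 1 was called higher, a MAP2 kinase (1.85%), in a fit that called 9 of all tested genes. Over all 6 groups 17 of 54 were called with no block (31.5%, against 15.3% of all genes), and the difference between these shares was not tested.

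The flagellin receptor gene TLR5 was low in every library, at 0.375 to 2.82 CPM. In PBS it had 1.44, 1.42, 2.35 and 2.49 CPM at 24 h, against 0.930, 0.375, 0.875 and 0.958 CPM at 2 h, and was called (1.29, SE 0.390, adjusted p 0.0393). TLR5 was also higher at 24 h in 4 of 4 replicates of SB203580 plus flagellin, at 1.84 ± 0.837 CPM against 0.883 ± 0.152 CPM at 2 h (SD, n = 4 each; 1.06, adjusted p 0.107), and was called there with the block (0.99, adjusted p 0.0144). In flagellin it averaged 1.47 ± 0.743 CPM at 24 h and 0.931 ± 0.182 CPM at 2 h (0.67, SE 0.385, adjusted p 0.342), and the difference between flagellin and PBS in this change was not called (-0.63, SE 0.545, adjusted p 1.00). Over time in PBS, 10 of 54 genes were called, 4 higher and 6 lower, which is 18.5% against 10.2% of all genes. Beside TLR5 they were IL1RAP, the shared subunit of interleukin-1 receptors (-1.31, adjusted p 0.00115), the receptor IL1R1 (-0.62, adjusted p 0.0261), TLR4 (-0.59, adjusted p 0.0358), UBE2V1, a partner of TRAF6 in chain building (-0.51, adjusted p 0.000902), the ligase RNF31 (0.41, adjusted p 0.0296), TRAF2 (0.54, adjusted p 0.0436), the ERK gene MAPK3 (0.47, adjusted p 0.00556) and the JNK genes MAPK8 (-0.64, adjusted p 0.0425) and MAPK9 (-0.36, adjusted p 0.0470).

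Over time in flagellin, 2 of the 54 genes were called higher and 4 lower (11.1%, against 7.9% of all genes). TNFAIP3 (-3.25, adjusted p 2.72e-05), IL1R1 (-1.10, adjusted p 0.000497), IL1RAP (-1.31, adjusted p 0.00145) and TLR2 (-1.92, adjusted p 0.00508) fell, and PELI2, a ligase that binds IRAKs (0.68, adjusted p 0.0430), and MAPK3 (0.33, adjusted p 0.0444) rose. In SB203580 plus flagellin 2 were called higher, PELI2 (0.98, adjusted p 0.00578) and the deubiquitinase CYLD (0.28, adjusted p 0.0433), and 4 lower, TNFAIP3 (-2.39, adjusted p 0.000558), IL1RAP (-0.78, adjusted p 0.0415), IL1R1 (-0.59, adjusted p 0.0420) and UBE2V1 (-0.29, adjusted p 0.0433), again 11.1%, against 6.88% of all genes. With the block the counts over time were 12 in SB203580 plus flagellin (22.2%, against 17.1% of all genes), 11 in flagellin (20.4%, against 18.8%) and 14 in PBS (25.9%, against 22.5%), shares near the background. IL1RAP and IL1R1 were thus called lower at 24 h in each of the 3 treatments, PBS included.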

How the data were processed

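The authors deposited 1 table of raw read counts, whole numbers for each gene and library. Per the submitters' processing notes, STAR 2.4.0a, featureCounts and Subread 1.4.6-p1 were used, with GRCm38, a mouse build, although the counts carry pig gene identifiers. The pig assembly is not given in the sources used here, nor whether counting used strand. Paired-end libraries were made from total RNA, per the labels.

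Only pig genes entered library sizes, so that 0.00131% of counts, in other features, were left out. Counts were scaled by TMM (factors 0.836 to 1.07), genes were kept by filterByExpr, and 14172 genes were tested with edgeR 4.0.16 in R 4.3.3 (1 term per group, quasi-likelihood F test, Benjamini-Hochberg over all tested genes, call at an adjusted p under 0.05). CPM are counts scaled by these sizes, RPKM are CPM per kilobase of exon, and intervals are 95%. Members, lists and the tests were chosen with earlier results of these data known. All 10 members are named whatever their values, and TLR5, CXCL8 and NFKBIA likewise. Of the pathway lists, genes are named that were called between treatments or times with no block, or between flagellin and PBS at 2 h with the block. Only the no-block test of flagellin against PBS at 2 h was run on simulated counts, which held no split into sets. The other comparisons and the fits with the block, with the term for the set and within each set were not simulated.

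The titles number replicates 1 to 4 in each group. Deviations from the group means correlated above 0.1 for same-numbered libraries in all 60 pairs (lowest 0.211, median 0.599). These deviations still held the difference between the sets (1 and 2, or 3 and 4). They therefore cannot show that a number pairs libraries within its set, which holds 2 numbers. Of 24 libraries, 15 were closest to their own number and 24 to their own set. That the numbers pair libraries is thus an assumption of the block and of the comparisons of same-numbered pairs. A term for the set was also fitted. DESeq2 1.42.0, RLE scaling, no count filter, each set alone and leaving out each library were further alternatives.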

Additional observations from a re-analysis of the deposited data

Results flagged for a closer look

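In 2 of 60 groups of 4 libraries, 1 library lay far from the other 3, where chance gives about 1 in 20. MYD88 in flagellin at 24 h had 203 CPM in replicate 2, above 141 to 146 CPM in the others. ACAA1, whose exons overlap those of MYD88, was also highest there, with 130 CPM in replicate 2 against 91.9 to 102 CPM in the others, and so were squamous markers (11633 CPM against 1959 to 2193 CPM). TRAF6 in flagellin at 24 h had 52.3 CPM in replicate 1, below 59.0 to 59.7 CPM in the others.

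The change between 24 h and 2 h differed between the sets of libraries for 5 members by edgeR's test of the difference: IRAK2 (-2.20), TRAF6 (-0.81), IRAK3 (-0.78) and IRAK1 (-0.69) had lower changes, and MAP3K7 (0.71) a higher change, in replicates 3 and 4 than in replicates 1 and 2. What separates the sets is not in the labels.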

How the results depend on the processing

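Of 2660 alternative values of single members, 2583 kept their side of the threshold, 67 passed it where the reported value did not, 9 no longer passed it and 1 reversed; 179 uncalled values changed sign. The reversed value is TRAF6 at 24 h against 2 h in SB203580 plus flagellin, 0.61 with replicates 1 and 2 alone (adjusted p 0.0257), and the cause was not tested. RLE scaling and no count filter moved no count by over 1.5 times. The replicate block changed the calls given in the report and no other call of a member. IRAK3 had the lowest counts of the members, 88 or more per library, and intervals of MAP3K8 and IRAK2 without the block span over 2 log2 units. Members past the threshold, in the order block, term for the set, replicates 1 and 2, replicates 3 and 4, DESeq2, numbered 1, 3, 0, 3 and 1 for flagellin against PBS at 2 h; 1, 2, 0, 2 and 1 for SB203580 plus flagellin against PBS at 2 h; 1, 4, 2, 1 and 1 over time in PBS; 5, 6, 2, 4 and 3 over time in flagellin; 2, 4, 4, 4 and 1 over time in SB203580 plus flagellin; 1, 1, 0, 1 and 0 for the flagellin effect at 24 h minus at 2 h; and 5, 7, 4, 5 and 3 over all 6 groups. Genes past the threshold, in that order, numbered 151, 318, 20, 198 and 102 for flagellin against PBS at 2 h (reported 46); 114, 281, 14, 183 and 81 for SB203580 plus flagellin against PBS at 2 h (26); 9, 65, 2, 2 and 10 for it at 24 h (1); 5, 53, 0, 93 and 13 for SB203580 plus flagellin against flagellin at 2 h (1) and 0, 13, 2, 1 and 1 at 24 h (0); 3183, 4700, 2159, 3478 and 1982 over time in PBS (1440); 2664, 4095, 1539, 3860 and 1611 in flagellin (1120); 2422, 3838, 1540, 3440 and 1471 in SB203580 plus flagellin (975); and 27, 38, 4, 74 and 11 for the flagellin effect at 24 h minus at 2 h (6). Over all 6 groups the block gave 4318, the set term 6341, replicates 1 and 2 alone 2455, replicates 3 and 4 alone 4968 and DESeq2 3203 (2169). These counts have unlike totals: 14172 genes with the block or the set term, 14183 in replicates 1 and 2 alone, 13939 in replicates 3 and 4 alone and 19494 for DESeq2. DESeq2 called 1 gene for flagellin against PBS at 24 h, and replicates 3 and 4 alone 1 gene for the inhibitor effect at 24 h minus at 2 h. With 1 library left out in turn, genes numbered 15 to 42 for flagellin against PBS at 2 h, 10 to 25 for SB203580 plus flagellin against PBS at 2 h, 0 to 2 for it at 24 h, 1 to 2 for SB203580 plus flagellin against flagellin at 2 h, 835 to 1319 over time in PBS, 710 to 1029 in flagellin and 625 to 836 in SB203580 plus flagellin, and members 1 to 3 over time in flagellin and 0 to 1 in SB203580 plus flagellin.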
